A study of Homo sapiens with 4 samples.

Results

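The genes described here are 10 genes of ceramide and sphingosine turnover, namely the ceramidases *ACER2*, *ACER3* and *ASAH1*, the sphingosine kinases *SPHK1* and *SPHK2*, the sphingosine 1-phosphate phosphatases *SGPP1* and *SGPP2*, the sphingosine 1-phosphate lyase *SGPL1*, the ceramide glucosyltransferase *UGCG* and the acid sphingomyelinase *SMPD1*. They were taken by gene symbol from the transcript tables, which hold 23287 gene symbols, and all 10 were found. The set was chosen by the difference in FPKM of *ACER2* between the progestin and vehicle RNA-seq libraries, so that the changes between these libraries are given as a description. T47D, a human breast cancer cell line that carries the progesterone receptor (PR), was kept in medium with charcoal-stripped serum for 24 h and harvested after 3 h with 10 nM R5020, a synthetic progestin, or with its vehicle, ethanol (EtOH). For the PR ChIP-seq library the cells were kept in stripped serum for 3 days and received 10 nM R5020 for 1 h. There was 1 library of each kind from this 1 cell line, so differences cannot be set against a spread between replicates and no test was made. In such bulk libraries a change in the share of cells that express a gene and a change in the RNA per cell cannot be told apart.

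Ceramide is the backbone of the sphingolipids. Ceramidases cleave it into sphingosine and a fatty acid, and sphingosine kinases phosphorylate sphingosine to sphingosine 1-phosphate, a lipid that acts on cell surface receptors. Sphingosine 1-phosphate is returned to sphingosine by phosphatases or broken down for good by the lyase. Ceramide is known as a lipid of growth arrest and cell death and sphingosine 1-phosphate as one of survival and migration, and their interconversion is often described as a rheostat.

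The deposited unit of expression is FPKM, fragments counted relative to transcript length and library size, summed here over the transcripts of a gene. Coverage times transcript length over the read length of 50 bp, called read equivalents below, gave 36203604 in R5020 and 35151493 in EtOH. The paper reports larger totals of uniquely mapped reads, with EtOH above R5020, so these sums do not stand for sequencing depth. Of the luminal epithelial markers, *KRT19*, *EPCAM*, *GATA3*, *ESR1* and *PGR* had FPKM values from 10.9 to 608 over both libraries. The keratins *KRT8* and *KRT18* were at 285 and 174 in R5020, but their estimation had failed in EtOH, where they are listed at 0. Markers of basal, endothelial and blood cells (*KRT5*, *KRT14*, *PECAM1*, *CDH5*, *PTPRC*) did not exceed 0.315. Of the fibroblast collagens *COL3A1* was listed at 0 in both libraries, and *COL1A1* was at 5.12 in EtOH and 3.31 in R5020. The estimation status was OK for all 20 transcripts of the 10 genes in both libraries. The log2 ratio of R5020 to EtOH had a median of 0.01 across the 10225 genes at an FPKM of 1 or more in each library.

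Progestin-treated cells differed from vehicle-treated cells in the mRNA of *ACER2*, which was 5.75 times as high, and of *UGCG*, which was 2.37 times as high. The mRNAs of *ACER3*, *ASAH1*, *SGPP1* and *SGPL1* differed by less than 10% between the libraries. A change was expressed as log2((FPKM in R5020 + 1) / (FPKM in EtOH + 1)) and counted from 1.5-fold on this scale, for genes with FPKM of at least 1 in at least 1 library. Of the 10 genes, 7 passed this filter, 2 were higher in R5020, none was lower and 5 changed less. Among all 11018 genes that passed, 7.67% were higher and 4.14% were lower. The median log2 fold change was 0.09 over the 7 genes and 0.01 over all genes that passed. Since the contrast itself led to the choice of these genes, nothing is read from these counts. The member nearest to the threshold from inside was *UGCG* (1.18) and that nearest from outside was *SMPD1* (−0.33).

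**Figure D1:**
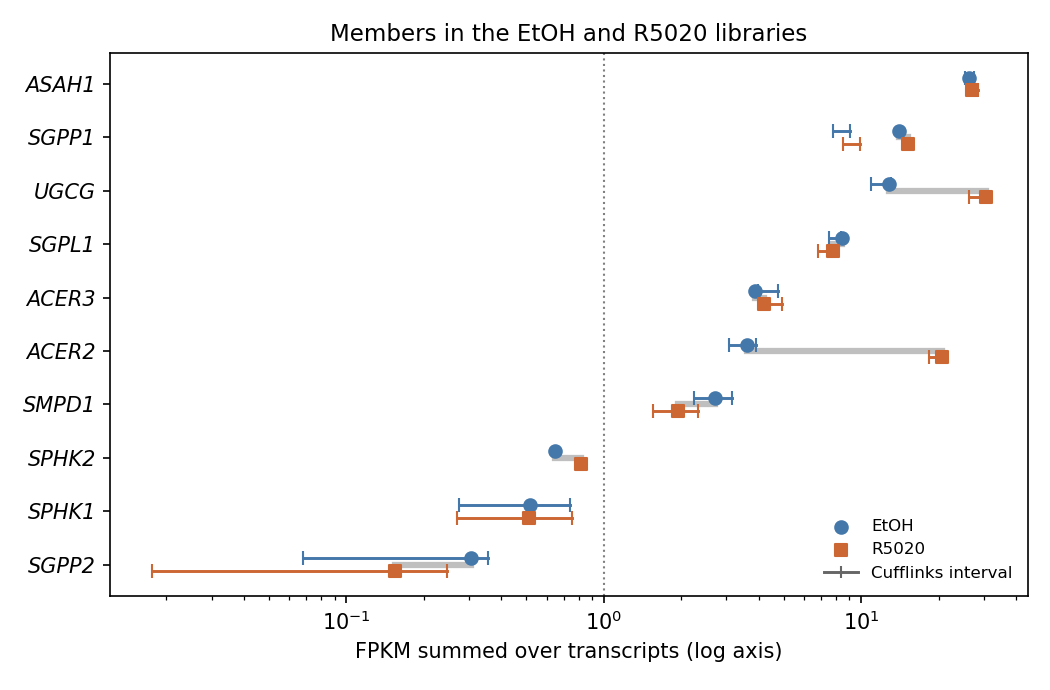
FPKM of the 10 genes in the EtOH (circles) and R5020 (squares) libraries, on a log axis, ordered by the level in EtOH. Thin lines are the Cufflinks intervals of genes with 1 expressed transcript, where the lower bound is above 0, thick grey lines join the libraries and the dotted line marks an FPKM of 1. *ACER2* moved from 3.59 to 20.6 and *UGCG* from 12.9 to 30.5, while the intervals of *SGPP1* lie below its values.

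*ACER2*, the alkaline ceramidase of the Golgi complex, was at an FPKM of 3.59 with vehicle and 20.6 with R5020 (log2 fold change 2.24). Among the 11018 genes it held rank 68 by this change, and 99.4% of them had a lower log2 fold change. The gene lies on chromosome 9 (hg19, 19408925 to 19452500) and has a single transcript in the files, NM_001010887. Its Cufflinks interval was 3.08 to 3.90 in EtOH and 18.4 to 20.4 in R5020. The intervals are far apart, but the R5020 value lies slightly above the upper bound of its own interval. Such intervals come from 1 library each and do not cover the spread between cultures. The level rested on 975 read equivalents in EtOH and 5363 in R5020. In rank among all 23287 gene symbols *ACER2* went from 6901 to 1437.

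The other ceramidases differed little between the libraries. *ASAH1*, the acid ceramidase of the lysosome (chromosome 8, 17913925 to 17942507), was at an FPKM of 26.3 with vehicle and 27.1 with R5020 (0.04). All of it was assigned to the transcript NM_177924, and the other 2 transcripts of the gene were listed at 0 in both libraries. *ACER3*, the alkaline ceramidase of the endoplasmic reticulum and Golgi complex (chromosome 11, 76571917 to 76734850), was at 3.89 and 4.19 (0.09). In vehicle-treated cells the FPKM of *ACER3* lay inside the interval of *ACER2*, but it was below its own interval of 3.99 to 4.76, which does not overlap that of *ACER2*. In R5020-treated cells *ACER2* stood well above *ACER3*.

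The makeup of the ceramidase mRNA therefore differed between the libraries. The summed FPKM of the 3 ceramidases was 33.8 in EtOH and 51.9 in R5020, a ratio of 1.54. *ACER2* held 10.6% of this sum in EtOH and 39.7% in R5020. *ASAH1* held 77.8% and 52.2%, and *ACER3* 11.5% and 8.07%. The ceramidases outside the 10 genes added little, as *ACER1* was at an FPKM of 0.634 with vehicle and 0.816 with R5020, and *ASAH2* at 0.182 and 0.211. *ASAH2B*, listed with them as a paralogue of *ASAH2*, was at 0.121 and 0.321. *ASAH2* and *ASAH2B* are near-identical in sequence, and reads with several positions were discarded, so their values are uncertain.

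The mRNAs of both sphingosine kinases were low. *SPHK1* (chromosome 17, 74380690 to 74383941) was at an FPKM of 0.519 with vehicle and 0.511 with R5020, and *SPHK2* (chromosome 19, 49122548 to 49133663) at 0.645 and 0.817, so neither reached an FPKM of 1. Their log2 fold changes were −0.01 and 0.14. For *SPHK1* the sum concealed a difference between transcripts. The whole level was assigned to NM_001142601 in EtOH (interval 0.273 to 0.738) and to NM_182965 in R5020 (0.269 to 0.753), and each was listed at 0 in the other library. These transcripts have the same start and end in the files, and the level rested on 92 read equivalents in EtOH and 99 in R5020. For *SPHK2* the main transcript NM_020126 was at 0.524 in EtOH and 0.501 in R5020. The higher sum in R5020 came from NM_001204160, at 0.157 in R5020 and listed at 0 in EtOH, and from NM_001204159, at 0.159 and 0.120.

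The enzymes that consume sphingosine 1-phosphate were led by *SGPP1* and *SGPL1*. *SGPP1* (chromosome 14, 64150935 to 64194756) was at an FPKM of 14.001 with vehicle and 15.2 with R5020 (0.11). Its Cufflinks intervals of 7.80 to 9.07 and 8.50 to 9.87 lie below these values, so its level is uncertain. *SGPL1* (chromosome 10, 72575704 to 72640932) was at 8.42 and 7.77 (−0.10), with overlapping intervals of 7.49 to 8.35 and 6.83 to 7.72. Its value lies slightly above its own interval in both libraries. *SGPP2* (chromosome 2, 223289322 to 223423617) was the lowest of the 10 genes, at 0.304 in EtOH and 0.155 in R5020, with 32 and 16 read equivalents. The sum of the 3 genes was 22.7 in EtOH and 23.1 in R5020.

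*UGCG*, which adds glucose to ceramide and so opens the path to the glycosphingolipids, was the second of the 10 genes with a change past 1.5-fold. It lies on chromosome 9 (114659206 to 114695433) and was at an FPKM of 12.9 with vehicle (interval 10.96 to 13.1) and of 30.5 with R5020 (26.3 to 29.7). As for *ACER2*, the intervals are far apart and the R5020 value lies above its own. The log2 fold change was 1.18, rank 278 of 11018. *SMPD1*, which releases ceramide from sphingomyelin in the lysosome (chromosome 11, 6411644 to 6416228), was at 2.70 in EtOH (2.25 to 3.15) and 1.94 in R5020 (1.56 to 2.33). Its log2 fold change of −0.33 was below the threshold, and its intervals overlap.

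In vehicle-treated cells the order by FPKM was *ASAH1*, *SGPP1*, *UGCG*, *SGPL1*, *ACER3*, *ACER2*, *SMPD1*, *SPHK2*, *SPHK1* and *SGPP2*. In R5020-treated cells *UGCG* stood first, then *ASAH1* and *ACER2*, and *SGPP1*, *SGPL1*, *ACER3*, *SMPD1*, *SPHK2*, *SPHK1* and *SGPP2* followed. With no replicates, neighbours could be compared by their Cufflinks intervals only. These do not cover the spread between cultures, and several values lay outside their own interval, so the comparison is a rough one. In EtOH the intervals of *ACER2* and *SMPD1* overlap, as do those of *SPHK1*, *SGPP2* and the main transcript of *SPHK2*. The place of *SGPP1* is uncertain, since its EtOH interval (7.80 to 9.07) lies below that of *UGCG* (10.96 to 13.1). It overlaps that of *SGPL1* (7.49 to 8.35). In R5020 the intervals of *UGCG* (26.3 to 29.7) and *ASAH1* (25.9 to 28.4) overlap, so they do not settle which of these genes stood first. Those of *SPHK1* and the main transcript of *SPHK2* overlap there as well. Of the 10 genes, 3 kept an FPKM below 1 in both libraries.

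**Figure D2:**
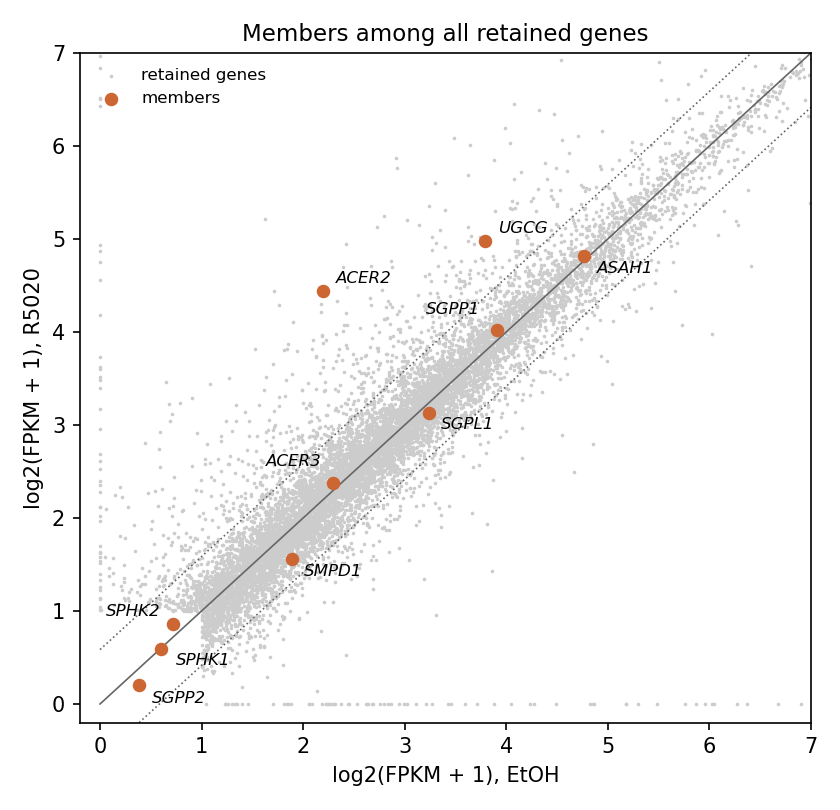
Each grey point is 1 of the 11018 retained genes, with log2(FPKM + 1) in EtOH on the horizontal and in R5020 on the vertical axis, both cut at 7, and the 10 members are in orange. The solid line marks equal levels and the dotted lines a 1.5-fold difference. *ACER2* and *UGCG* lie above the upper dotted line and the other 8 members lie between the lines.

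The genes whose levels in the 2 RNA-seq libraries were most like those of *ACER2* were named by their distance from it on the log2(FPKM + 1) scale. The nearest was *TSC22D3* (distance 0.14), the glucocorticoid-induced leucine zipper protein, at 3.52 in EtOH and 18.7 in R5020. It was followed by *ZNF703* (0.17), a zinc finger repressor, at 4.05 and 19.1. *DIXDC1* (0.23), a protein of Wnt signaling, was at 3.53 and 17.5. *PRKAB2* (0.32), a subunit of the AMP-activated protein kinase, was at 4.36 and 17.4. With only 2 libraries, this likeness says no more than that the genes had a similar level before and after the treatment.

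To place the 10 genes within their pathway, 53 further genes of sphingolipid metabolism, transport and signaling were listed by function. All 53 were found and 38 passed the filter. In R5020 4 of the 38 were higher by 1.5-fold or more, 3 were lower by as much and 31 changed less, with a median log2 fold change of 0.03 against 0.01 over all retained genes. The shares of higher and lower genes over all retained genes are the 7.67% and 4.14% given above. *GBA2*, *S1PR1*, *S1PR4* and *PPAP2A* were listed at 0 in both libraries.

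Ceramide synthesis held 3 of the 7 changed genes and 16 of the 38 retained ones, which are similar shares. *DEGS1*, the desaturase that turns dihydroceramide into ceramide, was at an FPKM of 11.5 with vehicle and 24.3 with R5020 (log2 fold change 1.02). *CERS6*, a ceramide synthase, was at 5.04 and 9.54 (0.80). *SPTSSB*, a small subunit that stimulates serine palmitoyltransferase, the enzyme of the first step, was lower, at 43.0 and 22.0 (−0.94). The levels of *DEGS1* and *SPTSSB* are uncertain, as their FPKM lay above their own intervals in both libraries, 6.84 to 8.31 and 14.8 to 17.0 for *DEGS1* and 34.6 to 37.6 and 17.6 to 19.9 for *SPTSSB*. Among the 16 retained genes of this step, the other 13 changed by less than 1.5-fold, the subunits *SPTLC1* (12.4 in EtOH and 13.7 in R5020) and *SPTLC2* (33.1 and 24.5) and the most abundant ceramide synthase, *CERS2* (51.9 and 46.8), among them.

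The other changed genes lay in different branches. *ALDH3A2*, the aldehyde dehydrogenase that takes up the fatty aldehyde left by the lyase, was at 9.01 with vehicle and 18.4 with R5020 (0.96). The difference was that of transcript NM_000382, at 7.68 and 18.4, while NM_001031806 was at 1.33 in EtOH and listed at 0 in R5020. *SMPDL3B*, a phosphodiesterase related to acid sphingomyelinase, was at 3.47 and 6.87 (0.81). *SGMS2*, a sphingomyelin synthase, was lower with R5020, at 7.09 and 3.93 (−0.72), and *PPAP2C*, a lipid phosphate phosphatase, likewise, at 4.21 and 1.87 (−0.86). For *SGMS2* and *PPAP2C* the difference past 1.5-fold rested on the sum, since both had a second transcript that was listed at 0 in R5020 only. With the highest transcript alone their log2 fold changes were −0.53. The second sphingomyelin synthase, *SGMS1*, was at 9.06 in EtOH and 13.9 in R5020 (0.57), and the sphingosine 1-phosphate exporter *SPNS2* at 3.20 and 5.29 (0.58), just under the threshold of 0.585 on the scale with the pseudocount. The ratios of FPKM without it were 1.53 and 1.65. The 2 retained receptors of sphingosine 1-phosphate were low, *S1PR3* at 1.42 and 1.198 and *S1PR5* at 1.75 and 1.53.

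**Figure D3:**
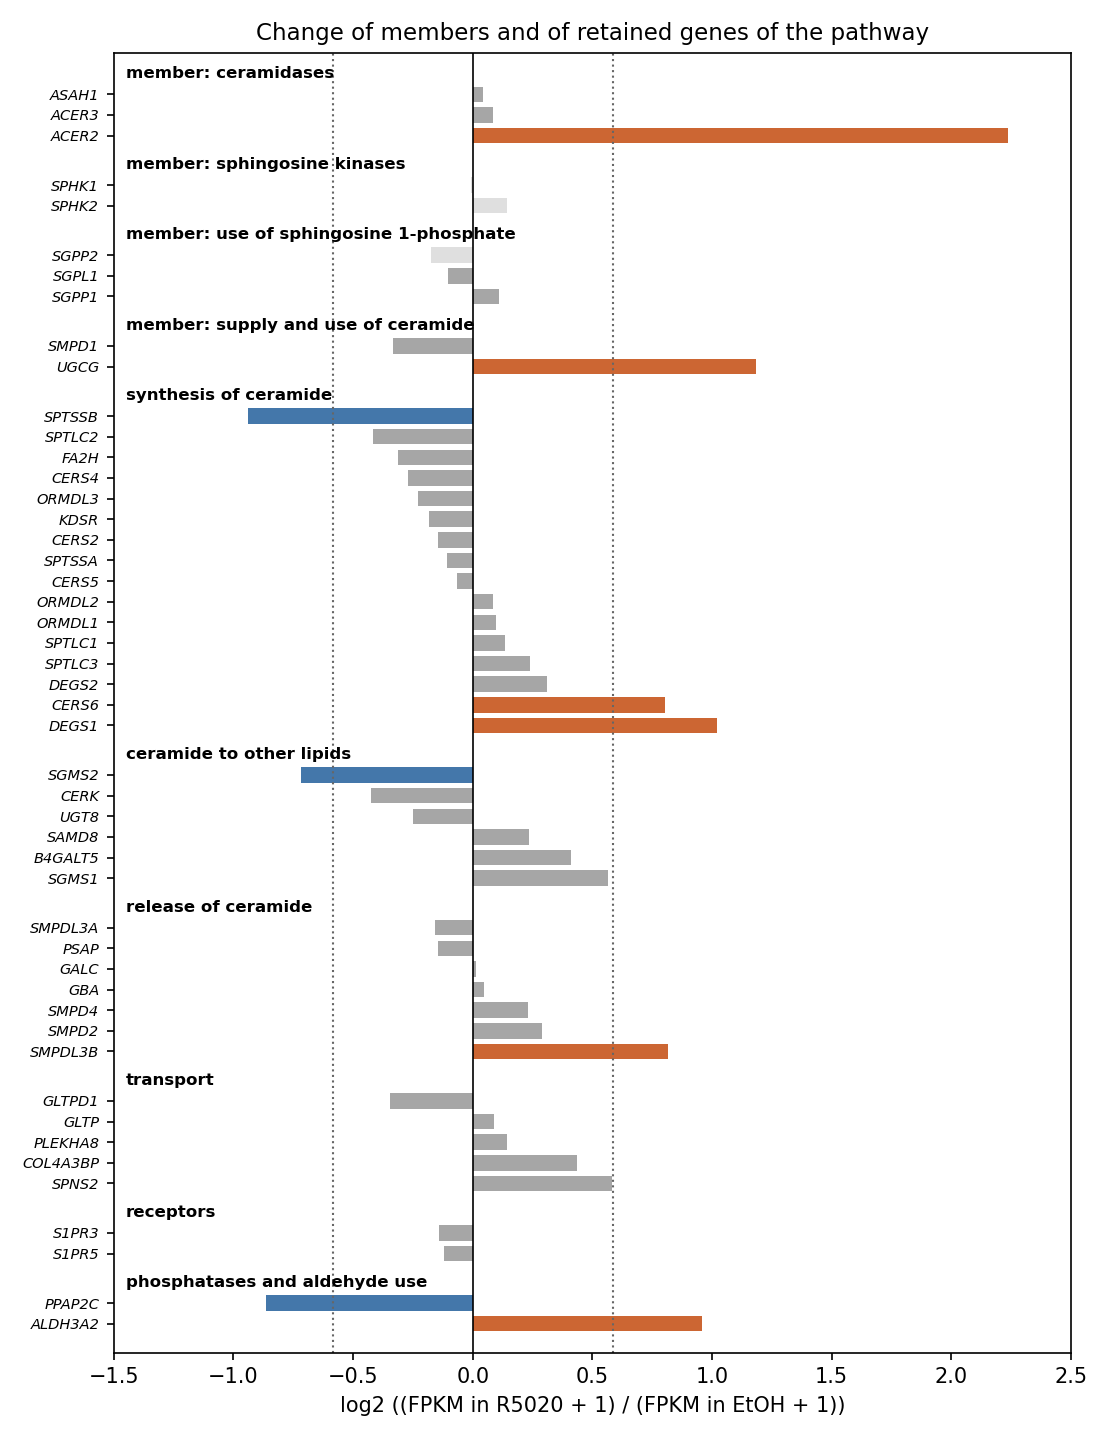
Bars give the log2 fold change of R5020 over EtOH on the log2(FPKM + 1) scale for the 10 members and the 38 retained pathway genes, by role. Orange bars are at least 1.5-fold higher and blue bars at least 1.5-fold lower (dotted lines), grey bars changed less and pale bars are members below the filter. Among the members *ACER2* (2.24) and *UGCG* (1.18) pass the line, and among the other genes *DEGS1* has the highest value (1.02) and *SPTSSB* the lowest (−0.94).

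The PR ChIP-seq library gave 11181 PR binding sites, with scores from 50 to 1965 and a median of 74.5, where the score is 10 times the −log10 of the p-value of the peak caller. PR binds as a dimer to a hormone response element, a palindrome of a pair of half-sites. Of the 10 genes, 5 had a PR binding site in the gene or within 50 kb of its extent (*ACER3*, *SPHK1*, *SPHK2*, *SGPP1* and *UGCG*), with 6 sites in all. The same held for 45.6% of all 23287 gene symbols, for 52.7% of the 11018 retained genes and for 61.4% of the 845 retained genes that were at least 1.5-fold higher in R5020. A member count of 5 in 10 is near these shares. *ACER2*, with the largest change of the 10 genes, had no site within 50 kb. The nearest one lay 264 kb away and had a score of 112.

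The site at *UGCG* lay inside the gene, in an intron, with its midpoint 3.22 kb downstream of the start, and had a score of 66.61. At *SGPP1* the site overlapped a coding exon of the gene, 0.671 kb downstream of the start, with a score of 66.56. Both scores are below the median of all sites. The other 4 sites lay outside the members. The site 17.5 kb from *SPHK1* had the highest score of the 6, 124, which 92.5% of all sites did not reach, and lay inside *UBE2O*, a ubiquitin-conjugating enzyme gene (FPKM of 3.25 in EtOH and 3.68 in R5020). The sites near *SPHK2* were 15.7 kb and 26.0 kb away with scores of 92.7 and 64.7. The former overlapped the deposited extent of *CA11*, with its midpoint in no protein-coding gene model, and the latter lay in an intron of *SULT2B1*. Around them lay 9 and 7 other genes within 50 kb, respectively. The site 25.2 kb from *ACER3* had a score of 57.65 and was intergenic, 7.02 kb from *B3GNT6*. Just outside the distance, a site lay 51.1 kb from *SGPL1*. For *SGPP2*, *SMPD1* and *ASAH1* the nearest site was 175 kb, 1119 kb and 2916 kb away.

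**Figure D4:**
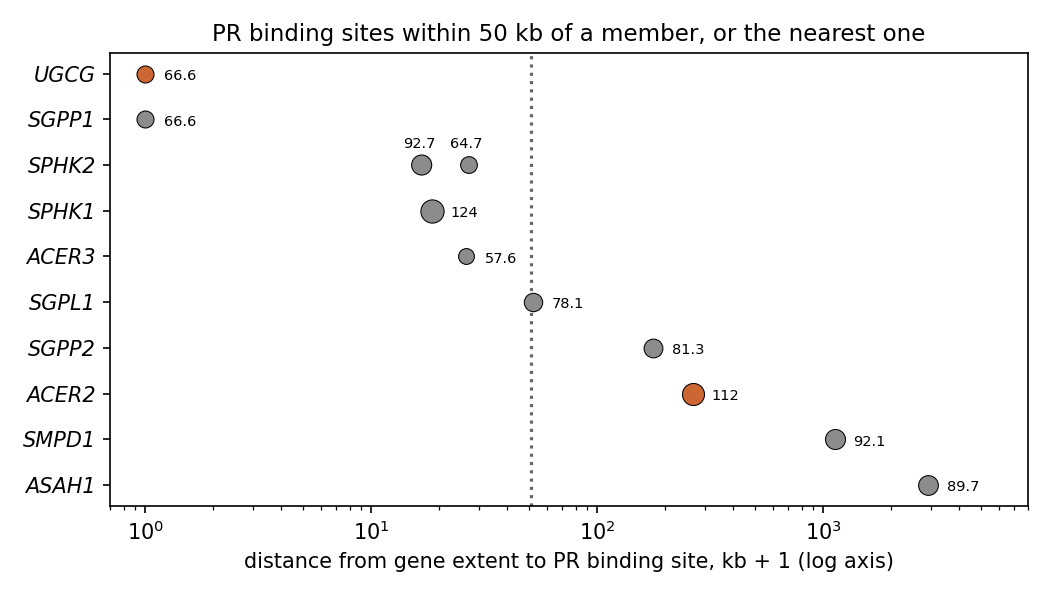
Distance from each member to its PR binding sites within 50 kb, or to the nearest site, in kb + 1 on a log axis, where a site inside the gene is at 1. Point size and the printed number give the score, orange marks the members at least 1.5-fold higher in R5020 and the dotted line marks 50 kb. *UGCG* and *SGPP1* hold a site inside the gene, and the nearest site to *ACER2* is 264 kb away.

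Of the 2 members with a site inside the gene, *UGCG* was higher in R5020 and *SGPP1* changed by a log2 fold of 0.11. The 3 members with a site outside the gene but within 50 kb (*ACER3*, *SPHK1*, *SPHK2*) had log2 fold changes from −0.01 to 0.14. Presence of a site within 50 kb and a change past 1.5-fold therefore coincided in 1 of the 10 genes. Of the 7 changed genes of the wider pathway, 5 had a site within 50 kb. These were *DEGS1*, *ALDH3A2* and *PPAP2C* with a site inside the gene, *SPTSSB* with one 2.62 kb away and *SGMS2* with one 35.3 kb away. *CERS6* and *SMPDL3B* had their nearest sites at 566 kb and 208 kb. Of all 53 genes, 30 (56.6%) had a site within 50 kb. For comparison, the shares were 45.6% over all gene symbols, 52.7% over retained genes and 61.4% over higher genes. No share was taken over lower genes, to which *SPTSSB*, *SGMS2* and *PPAP2C* belong.

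The sequences below are those of the promoters of the 2 genes that were higher in R5020, to show that they hold no hormone response element motif. They are the 250 bases before the RefSeq start, on the plus strand, matched to GRCh37, the assembly of hg19, and the RefSeq starts differ from the starts in the deposited files. Capitals would mark the half-site AGAACA or TGTTCT and the full element, which is GNACA and TGTNC with 3 bases of any kind between them, reads the same on both strands and can overlap a half-site, and neither occurs.
ACER2 promoter, chr9:19408757-19409006: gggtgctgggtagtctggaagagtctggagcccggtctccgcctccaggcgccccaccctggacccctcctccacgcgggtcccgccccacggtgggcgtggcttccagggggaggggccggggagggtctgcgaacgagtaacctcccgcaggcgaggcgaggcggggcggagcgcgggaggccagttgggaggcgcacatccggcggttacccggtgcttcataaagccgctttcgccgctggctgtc
UGCG promoter, chr9:114658844-114659093: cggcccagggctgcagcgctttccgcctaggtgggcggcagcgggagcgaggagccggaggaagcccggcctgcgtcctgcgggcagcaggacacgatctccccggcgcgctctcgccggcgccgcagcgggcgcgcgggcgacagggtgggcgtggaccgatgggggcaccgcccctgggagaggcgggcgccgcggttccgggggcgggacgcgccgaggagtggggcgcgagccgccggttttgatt

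Over the 300 bases from 250 before to 50 after the start, the GC content was 71.7% for *ACER2* and 79.0% for *UGCG*, against a median of 58.7% over 35116 RefSeq promoters. The full element was present in 0.390% and a half-site in 14.8% of these promoters. RefSeq promoters were at hand for 8 of the 10 genes, and none of them held the full element.

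The PR binding sites shown next are the 2 inside members, the one with the highest score (near *SPHK1*) and the one with a pair of half-sites (near *ACER3*). Each is given on the plus strand of hg19, whole or as its central 300 bases, with the half-sites AGAACA and TGTTCT in capitals.
UGCG site, chr9:114662277-114662576: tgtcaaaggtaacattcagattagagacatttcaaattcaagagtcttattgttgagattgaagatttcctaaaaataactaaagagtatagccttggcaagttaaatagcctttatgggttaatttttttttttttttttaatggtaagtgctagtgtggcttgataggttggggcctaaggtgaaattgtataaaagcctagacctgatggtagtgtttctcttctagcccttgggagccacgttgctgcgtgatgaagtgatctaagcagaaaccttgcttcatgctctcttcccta
SGPP1 site, chr14:64193936-64194235: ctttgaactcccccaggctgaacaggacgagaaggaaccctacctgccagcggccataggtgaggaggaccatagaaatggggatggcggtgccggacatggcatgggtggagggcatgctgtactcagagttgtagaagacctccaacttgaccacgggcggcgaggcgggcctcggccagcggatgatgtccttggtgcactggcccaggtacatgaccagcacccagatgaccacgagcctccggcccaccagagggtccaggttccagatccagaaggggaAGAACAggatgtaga
SPHK1 site, chr17:74401471-74401700: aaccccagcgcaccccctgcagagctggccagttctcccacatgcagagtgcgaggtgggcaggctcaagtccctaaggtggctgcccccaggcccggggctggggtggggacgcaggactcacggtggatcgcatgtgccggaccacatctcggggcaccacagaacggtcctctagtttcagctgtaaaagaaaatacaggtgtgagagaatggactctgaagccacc
ACER3 site, chr11:76760041-76760340: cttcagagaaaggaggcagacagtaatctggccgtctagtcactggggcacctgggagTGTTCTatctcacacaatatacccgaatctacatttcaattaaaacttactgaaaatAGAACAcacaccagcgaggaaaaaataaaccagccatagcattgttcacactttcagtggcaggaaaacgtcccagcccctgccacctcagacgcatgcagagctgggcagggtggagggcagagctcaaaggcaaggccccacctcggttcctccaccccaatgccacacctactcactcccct

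The *UGCG* and *SPHK1* sequences hold neither motif, the *SGPP1* sequence holds 1 half-site and the *ACER3* sequence holds 2. None of the 6 sites near members held the full element in the 300 bases around the midpoint, and 3 of the 6 held a half-site. Of 11178 PR binding sites, 210 (1.88%) held the full element in such a window, against 104 of 22338 windows (0.466%) that lay 5 kb to either side. The share was 6.17% in the tenth of the sites with the highest scores. Half-sites were present in 17.7% of all sites and in 19.1% of the windows beside them. A match describes the letters only, and the absence of a match in these windows says nothing of how PR was held there.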

How the data were processed

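Of the series, 3 libraries of T47D cells were analysed, 1 RNA-seq library after R5020, 1 after EtOH and 1 PR ChIP-seq library. Input DNA entered only as the control of the peak caller. Groups were taken from the sample titles. The 10 members and the list of 53 pathway genes were chosen with earlier results of these data known.

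RNA-seq reads were trimmed by the authors (Trimmomatic) and mapped to hg19 (TopHat), multi-mapped reads were dropped, and FPKM was estimated (Cufflinks). They deposited FPKM with an interval, and a coverage signal, for RefSeq transcripts. FPKM is already divided by transcript length and library size, so the number of fragments is not given and no count test was used. From the deposited coverage signal, read equivalents were derived, and these cover neither PCR duplicates nor the spread between cultures. FPKM lay outside its own interval for 3 of the 11 member transcripts above 0 in EtOH and 4 of 12 in R5020. ChIP-seq reads were aligned with Bowtie 1.1.2, and sites were called with MACS against input. The authors deposited positions with a score.

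FPKM values were summed per gene symbol, with a pseudocount of 1, a minimum FPKM of 1 in at least 1 library and a threshold of 1.5-fold. The FPKM minimum and the 1.5-fold threshold follow the methods of the paper, whereas the sum and the pseudocount were added here and no p-value was used. Distances run from the nearest edge of a site to the nearest transcript. Sites were annotated by their midpoint against the protein-coding models of GENCODE 44 (GRCh37). Named were all members, the pathway genes past 1.5-fold, the 5 genes nearest to *ACER2* (1 of which is not reported here), and the sites within 50 kb of a member with the nearest gene to each. Pathway genes under the threshold only because of the pseudocount, the main subunits and receptors and the genes in which a site lies were named after their values were seen. Positions are 1-based. The code for the calls, distances and motif search was checked on simulated data with known answers. That check held no spread between cultures and no changed genes of low FPKM. It therefore says nothing of how reliable the calls are. Alternatives were other pseudocounts, filters, thresholds, summaries and distances. Scripts ran under Python 3.11.15 (numpy 2.4.6, pandas 2.3.3, pysam 0.24.0).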

Additional observations from a re-analysis of the deposited data

How the results depend on the processing

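*ACER2* and *UGCG* were the members counted as higher, and no member as lower, under every alternative tried for these counts, namely a pseudocount of 0.1, rescaling to a median log2 ratio of 0 (a factor of 1.01), the highest transcript, FPKM of at least 1 in both libraries, no filter, 2-fold and, added after seeing the data, the midpoint of the Cufflinks interval. The log2 fold change of *ACER2* was 2.49 with a pseudocount of 0.1 and, both added after seeing the data, 2.52 without one and 2.46 with coverage in place of FPKM. Of the pathway genes, 5 were higher (*SMPD4* in addition) and 1 was lower with the highest transcript, and at 2-fold 1 was higher (*DEGS1*) and 0 were lower. With a pseudocount of 0.1, *SGMS1* and *SPNS2* also passed, which gave 6 higher genes. The members with a PR binding site numbered 2 within 10 kb (*SGPP1* and *UGCG*) and 1 at a score of at least 100 (*SPHK1*), and *ACER2* had 0 sites within 10, 25, 50 or 100 kb. *SGPP2* went from −0.18 to −0.67 with a pseudocount of 0.1 and to −0.97 without one, at 32 and 16 read equivalents. Low levels limit what can be said of *SGPP2*, *SPHK1* and *SPHK2*. No paired analysis was possible because each condition has 1 library, and no replicate could be left out.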

Other observations

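The expressed genes around *ACER2*, *RPS6* and *DENND4C*, changed by less than 1.5-fold. In the 200 kb to either side of it the files list *RPS6*, a ribosomal protein gene 28.7 kb away, at an FPKM of 164 with vehicle and 172 with R5020, *DENND4C*, 34.8 kb away, at 5.28 and 4.68, and *SLC24A2*, 55.0 kb away, below 0.01 in both. The log2 fold changes of *RPS6* and *DENND4C* were 0.07 and −0.14, against 2.24 for *ACER2*, which was chosen for its change. *SLC24A2* was too low for a change to show on this scale. Around *UGCG*, within the same distance, *SUSD1* was at 0.519 and 0.554 and *C9orf84* at 0.0905 and 0.0855, and the microRNA genes *MIR4668*, inside *UGCG*, and *MIR3134* were listed at 0.

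The PR binding site nearest to *ACER2*, 264 kb away, lay 17 kb from the deposited extent of *PLIN2*, which encodes a coat protein of lipid droplets, and in an intron of a longer GENCODE model of that gene. *PLIN2* was at an FPKM of 2.69 with vehicle and 6.63 with R5020 (log2 fold change 1.05). It was 1 of 2 genes within 50 kb of this site, both retained, and the other changed by less than 1.5-fold. Over all retained genes 7.67% were higher. Whether the site bears on either gene was not tested. The genes named in these observations were picked after their values were seen.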
